A study of Mus musculus with 9 samples.

Results

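The nuclear genes of the mitochondrial respiratory chain and ATP synthase were followed in mouse back skin. Members were all rows of the deposited tables whose symbol matched Nduf with a, b, c, s or v and a digit, Sdha to Sdhd, Uqcr, Cox4 to Cox8 or Atp5, which gave 84 of 23282 rows. Of these, 73 are general subunits of the complexes (35 of complex I, 4 of complex II, 8 of complex III, 11 of complex IV and 15 of complex V, the ATP synthase). The other rows are the 3 muscle isoforms of complex IV (Cox6a2, Cox7a1 and Cox8b), 5 isoforms of other tissues, the supercomplex factor Cox7a2l, and Atp5s and Atp5sl, which carry the Atp5 name but are not subunits. The low-count filter kept 80 of the 84 rows and 13740 rows in all.

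The 9 libraries came from wild-type C57BL/6 (B6) mice in 3 groups of 3. Unstripped skin is labelled with control cream, stripped skin had its outer layers peeled off with adhesive tape and had control cream, and NGO-treated skin was stripped and had a cream with NGO, graphene oxide (an oxidised carbon sheet) in nano-sized form, at 50 µg in 100 µL per mouse. Skin was collected 24 h after treatment, and the series title names acute skin inflammation as the subject. The labels give a control cream to the unstripped samples, but the protocol describes cream on stripped skin, so it is not known whether the unstripped skin was creamed. No source used here states the age of the mice. The labels do not tie replicates to separate animals, so the p-values below measure the spread between samples, which may be technical.

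The chain passes electrons from NADH (complex I) or succinate (complex II) through ubiquinone, complex III and cytochrome c to oxygen at complex IV. Complexes I, III and IV pump protons across the inner mitochondrial membrane, and complex V uses the return flow to make ATP. Most subunits are made from nuclear genes expressed in nearly every cell. Complex IV is an exception in part, since striated muscle replaces the liver-type subunits Cox6a1, Cox7a2 and Cox8a with Cox6a2, Cox7a1 and Cox8b. Mouse back skin lies on a thin sheet of striated muscle, the panniculus carnosus. The core subunits encoded in mitochondrial DNA are not analysed here.

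Levels are counts per 1000000 counts (CPM) on library sizes scaled by TMM, edgeR's correction for composition. A QuantSeq tag counts 1 transcript end, so CPM was compared between genes with no length correction. Library totals ran from 2019739 to 6303322 counts, and 3 counts in a library corresponded to 0.496 to 1.54 CPM. The members took 1.18% to 1.29% of counts in unstripped, 1.19% to 2.12% in stripped and 1.36% to 1.56% in NGO-treated libraries. Among the stripped libraries, replicate 1 stood apart: it was the shallowest of all 9 and the lowest of its group for 65 of the 73 general subunits. Of the 76 members at 50 CPM or more in both other stripped libraries, 18 were more than 3 times below both there, against 0 to 3 members in each other library. Where leaving it out changed the call of a member named in full, that is said beside the result or in the list of members that fell without it. Markers of basal epidermis (7 genes) summed to 22300 to 30900 CPM in unstripped, 1506 to 2557 in stripped and 11840 to 18300 in NGO-treated skin. Those of neutrophils (7 genes) summed to 35.6 to 48.7, 3609 to 10390 and 551 to 1666 CPM in the same order. Reads of the ribosomal RNA gene Rn45s took 13.2% to 16.1%, 22.1% to 25.1% and 9.35% to 21.0% of counts in unstripped, stripped and NGO-treated libraries. Genes detected numbered 14546 to 16183, 12433 to 13309 and 13863 to 14404. The part of these differences in the results below was not tested. Leaving Rn45s and the muscle markers out of the library sizes gave the same numbers of called members. That setting only rescales the libraries, and it moved the all-gene median log2 fold change after stripping from -0.1993 to -0.1912. It therefore cannot show what part these differences have. In bulk tissue a change in the number of cells of a type and a change in RNA per cell cannot be told apart.

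Stripping was accompanied by higher levels of the muscle isoforms. Of the 73 general subunits 65 had a fitted value above 0, and 9 passed the test as higher. In stripped against unstripped skin 12 of the 80 tested members rose and 2 fell. Over all tested genes 5.97% rose and 7.64% fell (edgeR quasi-likelihood test, Benjamini-Hochberg adjusted p under 0.05 over all tested genes). The libraries of the 2 groups did not overlap for 22 members that were higher and 4 that were lower, while 13.8% of all genes were apart and higher and 24.7% apart and lower. The median log2 fold change was 0.86 over the members and -0.20 over all genes. Without stripped replicate 1, 41 members rose, among them the same 12. Over all genes 976 were then called higher and 1148 lower, against 820 and 1050 with all libraries.

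With NGO, no member passed the test against stripped control skin in either direction. Over all tested genes 3.87% were called higher and 1.18% lower in that comparison. An unadjusted p under 0.05 was found for 22 members (27.5%) and for 21.2% of all tested genes. DESeq2 called 1 member higher and 8 lower, and over all genes 1043 higher and 678 lower. The groups were apart for 2 members that were higher (16.3% of all genes) and 13 that were lower (8.92%). The median log2 fold change was -0.55 over the members and 0.07 over all genes, and the smallest adjusted p was 0.0576, for Ndufa2. Without stripped replicate 1, 12 members fell: Sdhc, Atp5b, Uqcrq, Uqcrfs1, Ndufb9, Atp5a1, Ndufb8, Ndufc1, Ndufa4, Cox8b, Cox5a and Ndufa1. Over all tested genes 665 were then called higher and 264 lower.

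Against unstripped skin, NGO-treated skin had 3 members higher, the muscle isoforms, and 1 lower, Ndufa4l2. Over all tested genes 2.06% rose and 0.451% fell. The groups were apart for 19 members that were higher (11.9% of all genes) and 2 that were lower (14.4%). The median log2 fold change was 0.34 over the members and -0.07 over all genes. Any 2 of the 3 comparisons share the libraries of 1 group, so their fold changes are not independent of each other.

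**Figure D1:**
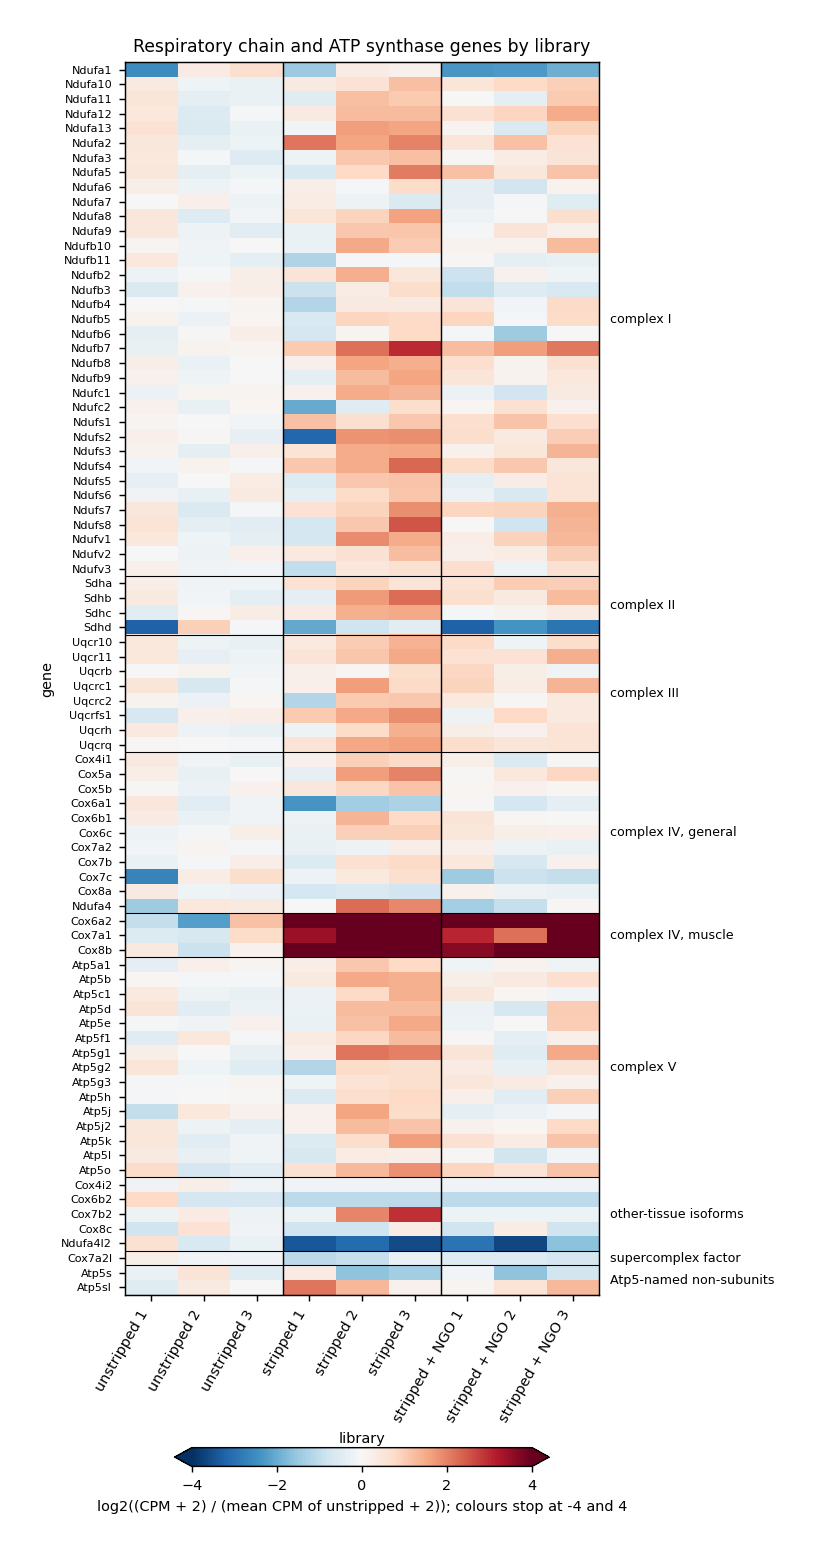
Heat map of the 84 members (vertical axis, by class) in the 9 libraries (horizontal axis). Colour is log2 of CPM plus 2 over the mean of the unstripped libraries plus 2, stopped at -4 and 4. The 3 muscle isoforms are dark red in the 6 stripped libraries, and stripped replicate 1 is paler than the other stripped libraries in most rows of the general subunits.

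Cox6a2, the muscle form of a regulatory subunit of complex IV, was the member with the widest range. Its level was 2.74, 0 and 18.8 CPM in the unstripped libraries, 719.8, 2324 and 2933 CPM in the stripped libraries, and 534, 317 and 679.7 CPM in the NGO-treated libraries. Every stripped library was above every NGO-treated one, and both groups lay above unstripped skin without overlap. The rise with stripping was 8.10 ± 1.12 (log2 fold change ± SE, edgeR adjusted p = 0.000328). NGO-treated skin was 6.14 ± 1.03 above unstripped skin (adjusted p = 0.00491), a call lost with no low-count filter (adjusted p = 0.132). It stood at -1.97 ± 0.84 against stripped control skin (adjusted p = 0.194). Cox6a2 lies on mm10 chromosome 7, 128205435 to 128206387, minus strand, and its exons overlap those of Itgad on the other strand. Itgad had 0 to 25 counts per library against 1377 to 9178 for Cox6a2 in the stripped libraries of either cream.

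Cox8b, the muscle form of the smallest subunit family, followed the same order of groups. Its level was 2.74, 0 and 2.05 CPM in unstripped, 117, 395 and 379 CPM in stripped, and 42.9, 72.7 and 129 CPM in NGO-treated skin. Stripped replicate 1 fell below NGO-treated replicate 3, so these groups overlapped, while unstripped skin lay apart from both. Cox8b rose by 7.54 ± 0.87 with stripping (edgeR adjusted p = 0.000102) and was 5.68 ± 0.82 above unstripped skin with NGO (adjusted p = 0.00216). Between NGO-treated and stripped control skin the value was -1.86 ± 0.64 (adjusted p = 0.111), and -2.26 without stripped replicate 1 (adjusted p = 0.0369). The gene lies on chromosome 7, 140898945 to 140900446, minus strand, with no annotated exon overlap.

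Cox7a1, the heart and skeletal muscle form of subunit 7a, was the least abundant of the 3 by its mean in stripped and in NGO-treated skin. It was at 1.71, 1.47 and 7.04 CPM in unstripped, 55.6, 329 and 259.9 CPM in stripped, and 42.6, 22.8 and 120.2 CPM in NGO-treated skin. NGO-treated replicate 3 was above stripped replicate 1, and unstripped skin was again apart. The rise with stripping was 5.95 ± 0.91 (edgeR adjusted p = 0.000636). With NGO it was 4.16 ± 0.85 above unstripped skin (adjusted p = 0.0155), a call lost in 3 of 9 fits that left out 1 library (unstripped replicate 1 or 2, or NGO-treated replicate 3) and with no low-count filter (adjusted p = 0.0793). Against stripped control skin the value was -1.79 ± 0.73 (adjusted p = 0.176). Cox7a1 lies on chromosome 7, 30184144 to 30186078, plus strand.

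The general partners moved differently from the muscle forms. Cox6a1, the form of most tissues, was at 563, 297 and 373 CPM in unstripped, 78.7, 155 and 171 CPM in stripped, and 427, 255 and 309.6 CPM in NGO-treated skin. Stripped skin was below both other groups in every library. Cox6a1 fell by 1.60 ± 0.37 on the log2 scale with stripping (edgeR adjusted p = 0.0115; 0.0547 without unstripped replicate 1). Its value with NGO against stripped control skin was 1.29 ± 0.37 (adjusted p = 0.0621), which did not pass in this fit, while DESeq2 gave an adjusted p of 0.0309. Cox8a was at 371, 256 and 246 CPM in unstripped, 179.6, 196 and 169 CPM in stripped, and 326, 252 and 242 CPM in NGO-treated skin. Stripped skin was again lowest with no overlap, but the change did not pass (-0.68 ± 0.29, adjusted p = 0.144). Cox7a2 ran from 308 to 449 CPM over all 9 libraries, with a log2 fold change of -0.06 ± 0.28 after stripping (adjusted p = 0.933). Its sign depended on the scaling.

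Start regions are shown for muscle isoforms and a general partner, to look for letters known from nuclear genes of the mitochondrion. RefSeq (GRCm38.p6) windows from 250 bases before to 50 after a start were found for 69 members, 75 windows in all. Both strands were searched for the NRF1 core GCATGCGC, the ETS core CCGGAAG, the ERR core AAGGTCA and the E-box CAGCTG, a site of muscle transcription factors that reads the same on both strands. The NRF1 core was in 14.9% of the 67 windows of general subunits and 2.71% of all 32851 windows. The ETS core was in 23.9% and 8.86%, the ERR core in 11.9% and 4.72%, and the E-box in 7.46% and 16.3%. These are descriptions of letters and not of binding. Below are the 250 bases before the start, 5′ to 3′ on the gene's strand, with matches in capitals. They lie at chr5:115348959-115349208 (minus) for Cox6a1, chr7:30183921-30184170 (plus) for Cox7a1 and chr7:140900447-140900696 (minus) for Cox8b.
Cox6a1: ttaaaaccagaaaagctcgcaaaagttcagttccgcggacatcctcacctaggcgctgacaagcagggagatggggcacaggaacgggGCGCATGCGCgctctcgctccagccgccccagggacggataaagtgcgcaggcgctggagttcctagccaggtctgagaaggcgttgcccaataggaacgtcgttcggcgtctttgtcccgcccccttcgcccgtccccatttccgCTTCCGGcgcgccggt
Cox7a1: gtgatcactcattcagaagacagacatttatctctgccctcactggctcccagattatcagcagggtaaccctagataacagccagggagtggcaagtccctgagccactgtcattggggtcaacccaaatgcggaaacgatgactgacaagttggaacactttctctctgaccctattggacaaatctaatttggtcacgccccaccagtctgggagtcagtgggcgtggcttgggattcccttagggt
Cox8b: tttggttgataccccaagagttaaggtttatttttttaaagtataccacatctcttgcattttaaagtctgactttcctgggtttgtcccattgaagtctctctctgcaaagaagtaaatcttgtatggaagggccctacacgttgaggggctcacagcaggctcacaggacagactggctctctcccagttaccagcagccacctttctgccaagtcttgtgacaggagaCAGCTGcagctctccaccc

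In Cox6a1 the first capitals hold a pair of overlapping NRF1 core matches, 1 on each strand, and the second an ETS core read on the other strand. The window of Cox7a1 holds none of the 4 motifs in these bases. Cox8b holds an E-box close to the start. Whether these letters bear on the changes in level was not tested. The windows of the other general partners, Cox7a2 and Cox8a, hold none of the 4 motifs in the same 250 bases, and Cox8a has 2 ETS core matches in its whole window, 1 across the start and 1 after it. Cox6a2 was not found in the table of windows and is named only.

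Shares within each pair do not depend on library scaling, since both genes are counted in the same library. Cox6a2 made up 0.484%, 0% and 4.79% of the counts of Cox6a2 and Cox6a1 in the unstripped libraries. The 0 came from a pair total of 1012 counts, which allows a share of up to 0.296% by the limit of 3 counts (the Wilson interval, plotted with the shares, reaches 0.378%). It made up 90.1%, 93.8% and 94.5% in stripped and 55.5%, 55.4% and 68.7% in NGO-treated libraries. Each group was apart from the others, so the form of the subunit counted most often was Cox6a1 in unstripped skin and Cox6a2 in both stripped groups.

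Cox8b took 0.733%, 0% and 0.826% of its pair with Cox8a in unstripped libraries, where the 0 of 874 counts allows up to 0.343% by the same limit (Wilson 0.438%). Its share was 39.4%, 66.9% and 69.1% in stripped and 11.6%, 22.4% and 34.8% in NGO-treated libraries, again with no overlap. Cox7a1 took 0.485%, 0.357% and 1.89% of its pair with Cox7a2 in unstripped, 15.3%, 50.25% and 36.6% in stripped, and 8.90%, 6.55% and 27.8% in NGO-treated libraries. For this pair NGO-treated replicate 3 lay above stripped replicate 1.

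The mean share of Cox6a2 was 1.76% ± 2.64 in unstripped, 92.8% ± 2.32 in stripped and 59.9% ± 7.63 in NGO-treated skin (SD, n = 3). For Cox8b the means were 0.520% ± 0.452, 58.5% ± 16.5 and 22.9% ± 11.6, and for Cox7a1 0.910% ± 0.849, 34.1% ± 17.6 and 14.4% ± 11.6. In all 9 comparisons were made over the 3 pairs by exact two-sided permutation tests. Of these, 8 gave an exact p = 0.1, the smallest that 3 libraries against 3 allow (adjusted over the 9, p = 0.112). The exception was Cox7a1 in NGO-treated against stripped skin (exact p = 0.2). The shares therefore cannot pass a threshold of 0.05 by this test, whatever their size.

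**Figure D2:**
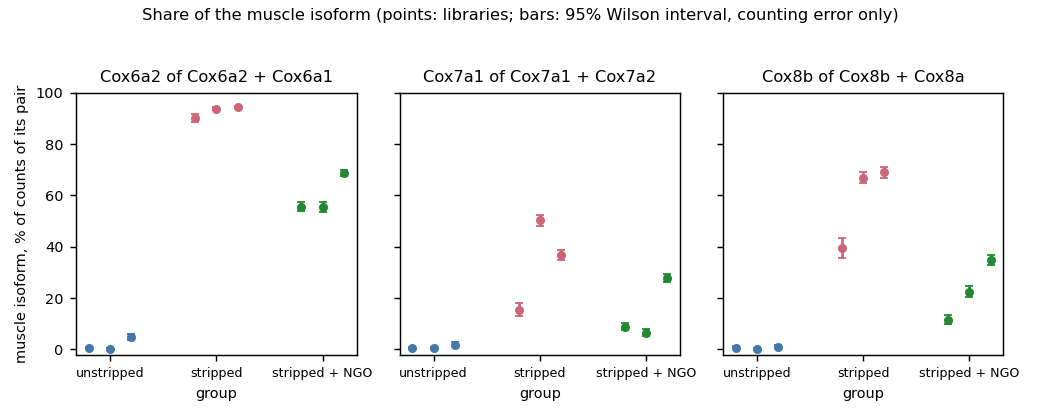
Share of the muscle isoform in the counts of its isoform pair (vertical axis, percent) by group (horizontal axis), 1 point per library in replicate order, with 95% Wilson intervals for counting error. For Cox6a2 the stripped libraries sit at 90.1% to 94.5% and the NGO-treated ones at 55.4% to 68.7%; for Cox7a1 these groups overlap.

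Markers of skeletal muscle moved with the muscle isoforms. The 23 marker genes, which include Acta1, Ckm and Mylpf, took 0.0174% to 0.164% of counts in unstripped, 4.57% to 10.2% in stripped and 2.39% to 4.73% in NGO-treated libraries. Of the 20 that were tested, 20 rose with stripping, 0 were called between NGO-treated and stripped skin (median -1.61), and 19 were higher in NGO-treated than in unstripped skin. Their sums ran from 149 to 1414, from 47490 to 132100 and from 21580 to 49360 CPM. Tnnc1 was at 0 in the unstripped and stripped libraries and Tnnt1 in the unstripped ones. Both encode slow-fibre troponins.

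Set against those markers, the muscle isoforms differed much less between stripped and NGO-treated skin. The 3 isoforms summed to 18.8, 30.7 and 27.1 CPM per 1000 CPM of muscle markers in stripped libraries. The same ratio was 26.0, 19.1 and 18.8 in NGO-treated libraries and 9.09, 9.82 and 19.7 in unstripped ones, where few counts lie behind it. The stripped and NGO-treated values overlapped. Smooth muscle markers (5 genes, Des shared with the skeletal list) summed to 78.4 to 101 CPM in unstripped, 329 to 1184 in stripped and 355 to 638 in NGO-treated skin. They did not move as a set: with stripping 3 had fitted values above 0 and 2 below, from -5.82 to 8.16. Cnn1 was at 0 in the stripped libraries with control cream. How far the amount of muscle in a sample sets the levels of these isoforms was not tested.

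**Figure D3:**
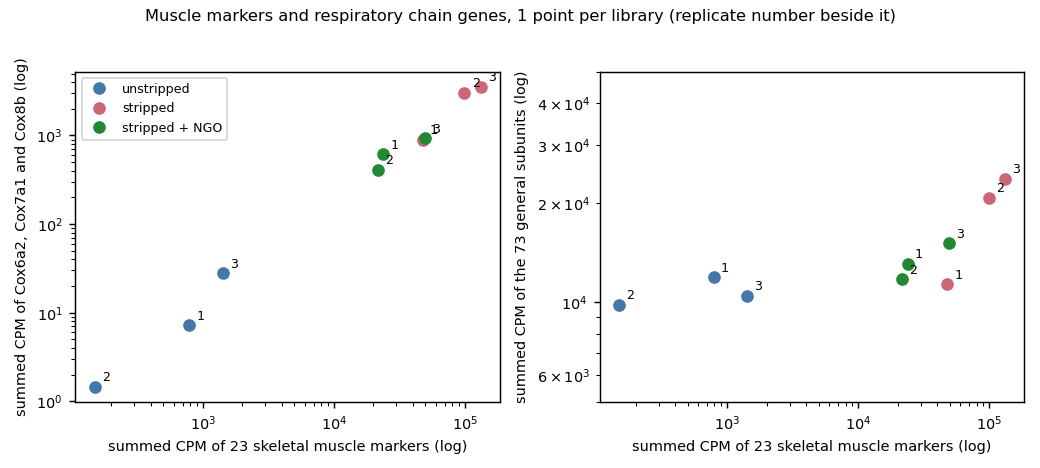
Summed CPM of the 3 muscle isoforms (left, log axis) and of the 73 general subunits (right, log axis) against the summed CPM of 23 skeletal muscle markers (log axis), 1 point per library. The muscle isoforms climb with the markers through all 9 libraries, from 1.47 to 3572 CPM, while the general subunits range from 9823 to 23690 CPM.

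The general subunits showed a smaller spread between groups. Summed over all 73, they were at 10730 ± 1061 CPM in unstripped, 18580 ± 6459 in stripped and 13310 ± 1691 in NGO-treated skin (SD, n = 3). The stripped libraries ranged from 11320 to 23690 CPM, and the lowest of them lay inside the unstripped range of 9823 to 11900. After stripping 9 general subunits rose and 1 fell, and 65 of 73 had a fitted value above 0 (median 0.85, and 1.21 without stripped replicate 1). With NGO against stripped control skin 0 were called, and 8 of 73 fitted values were above 0 (median -0.54, and -0.87 without that library). Against unstripped skin 0 were called with NGO, with 53 of 73 above 0 (median 0.33). Over all 13740 tested genes 6112, 7145 and 6363 fitted values were above 0 in these 3 comparisons. At an unadjusted p under 0.05 the 3 comparisons had 34, 19 and 11 of them (46.6%, 26%, 15.1%), beside 27.9%, 21.2% and 11.7% of all tested genes. With RLE scaling, which moves the median of all genes after stripping from -0.20 to -0.07, the median of the general subunits was 0.97.

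Stripped replicate 1 and NGO-treated replicate 3 held near-equal muscle marker levels, 47486 and 49361 CPM. Their muscle isoforms summed to 892 and 929 CPM. Their general subunits summed to 11320 and 15120 CPM, the NGO-treated library being the higher. These are 1 library of each group, with no replicate check. Stripped replicate 1 was the lowest of its group for 65 of the 73 general subunits. NGO-treated replicate 3 was the highest of its group for 40 of them.

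**Figure D4:**
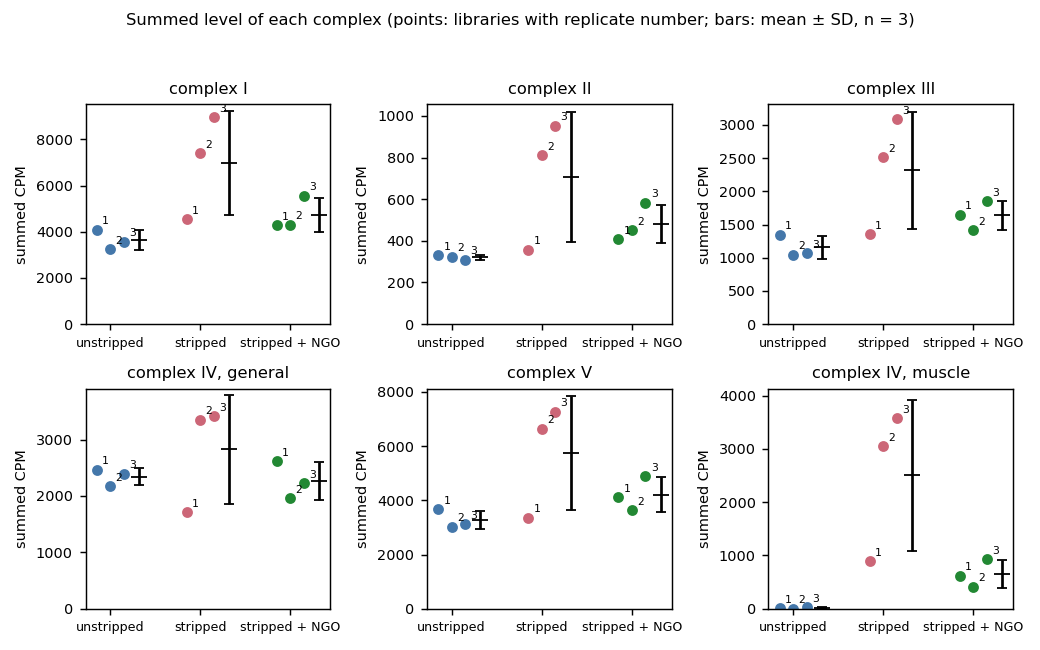
Summed CPM of the subunits of each complex (vertical axes from 0) by group (horizontal axes). Points are libraries with their replicate number, and bars are the mean ± SD of 3 libraries; in every panel stripped replicate 1 is the lowest stripped library, and for complex V it lies within the unstripped range.

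Complex I, the NADH dehydrogenase, summed to 3638 ± 422 CPM in unstripped, 6969 ± 2249 in stripped and 4718 ± 738 in NGO-treated skin. All 3 stripped libraries (4533, 7410 and 8965 CPM) were above the unstripped ones (3250 to 4087), as were the NGO-treated ones (4282 to 5571). Of its 35 subunits 4 rose with stripping: Ndufb7, Ndufa2, Ndufs4 and Ndufb8. None fell, and 11 were apart and higher. Over all tested genes 5.97% rose and 13.8% were apart and higher. None was called with NGO in either comparison in the reported fit.

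Ndufb7, an accessory subunit of the membrane arm, had the largest rise among the general subunits. It was at 27.7, 38.7 and 37.2 CPM in unstripped, 73.6, 167 and 289 CPM in stripped, and 84.7, 114 and 157 CPM in NGO-treated skin. Both stripped groups were above unstripped skin in every library and overlapped with each other. The rise was 2.35 ± 0.48 (edgeR adjusted p = 0.00483). NGO-treated skin was 1.78 ± 0.47 above unstripped skin, which did not pass in this fit (adjusted p = 0.0726). It passed without stripped replicate 1 (adjusted p = 0.0135), in DESeq2 (0.0124), with no low-count filter (0.00903) and in limma-voom. The replicate block (0.0389) and the fit of only the 2 compared groups (0.0181) also called it.

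Ndufa2, an accessory subunit of the matrix arm, was the most abundant complex I member in each group. It stood at 487, 273 and 309.6 CPM in unstripped, 1581, 1066 and 1412 CPM in stripped, and 502, 807 and 534 CPM in NGO-treated skin. The 3 groups did not overlap at any point, and stripped replicate 1 was the highest library of all, unlike for most members. Ndufa2 rose by 1.92 ± 0.33 with stripping (edgeR adjusted p = 0.00139). With NGO it stood at -1.14 ± 0.32 against stripped control skin (adjusted p = 0.0576 in this fit, 0.00385 in DESeq2). Its exons overlap those of Tmco6 on the other strand, which had 27 to 211 counts per library.

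Ndufs4, an accessory subunit needed for assembly and activity of complex I, was at 40.0, 47.2 and 41.6 CPM in unstripped, 93.6, 123 and 218 CPM in stripped, and 72.1, 93.4 and 59.9 CPM in NGO-treated skin. The groups were apart in the order stripped, NGO-treated, unstripped. It rose by 1.75 ± 0.41 with stripping (edgeR adjusted p = 0.0111; 0.0563 without unstripped replicate 3). Ndufb8, an accessory subunit of the membrane arm, rose by 1.21 ± 0.37 (adjusted p = 0.0434), but stripped replicate 1 (197 CPM) lay inside the unstripped range of 143 to 205 CPM. That call was lost in 8 of 9 fits that left out 1 library (adjusted p up to 0.178), and held without stripped replicate 1. It was also lost with only the 2 compared groups fitted (0.0836). Its exons overlap those of Gm20538 on the same strand, a gene with no values here.

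Ndufa1, a small membrane-arm subunit encoded on the X chromosome, varied widely within unstripped skin. Its level was 27.7, 209 and 264 CPM in unstripped, 60.2, 206 and 188 CPM in stripped, and 31.5, 32.2 and 41.9 CPM in NGO-treated skin. All NGO-treated libraries were below all stripped ones, and unstripped replicate 1 was the lowest library of the 9. The value with NGO against stripped control skin was -2.10 ± 0.66 (edgeR adjusted p = 0.083). This value passed without stripped replicate 1 (-2.51, adjusted p = 0.0366) and in DESeq2 (adjusted p = 0.0137). Without unstripped replicate 1 it was -2.10 (adjusted p = 0.0293), and NGO-treated skin was -2.75 against unstripped skin (adjusted p = 0.0138), where all libraries gave -2.25 ± 0.66 with overlapping groups (adjusted p = 0.124). Cox7c and Ndufa4 were likewise more than 3 times below both other unstripped libraries in unstripped replicate 1.

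Complex II, succinate dehydrogenase, links the citric acid cycle to the chain and has 4 subunits. It summed to 321 ± 11.3 CPM in unstripped, 708 ± 312 in stripped and 481 ± 91.0 in NGO-treated skin. The lowest stripped library, at 357 CPM, was above the highest unstripped one, at 331 CPM. Sdhc, a membrane anchor, was at 68.8, 98.2 and 118 CPM in unstripped, 121, 259.6 and 275 CPM in stripped, and 91.6, 104 and 119 CPM in NGO-treated skin. Stripped skin was apart from both other groups. Sdhc rose by 1.20 ± 0.38 with stripping (edgeR adjusted p = 0.0495), a call that held only without stripped replicate 1 among the 9 fits that left out 1 library (adjusted p up to 0.181 in the others). With NGO its value was -1.06 ± 0.37 (adjusted p = 0.12; 0.027 without stripped replicate 1).

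Sdhb, the iron-sulphur subunit, was the most abundant of the 4, at 141, 99.7 and 85.0 CPM in unstripped, 83.9, 357 and 521 CPM in stripped, and 169, 139.9 and 262 CPM in NGO-treated skin. Stripped replicate 1 was the lowest of the 9 libraries and the other stripped libraries the highest. The value with stripping was 1.56 ± 0.52 (edgeR adjusted p = 0.0648), and it passed without stripped replicate 1 (2.09, adjusted p = 0.00156) and in DESeq2 (0.0148). Sdhd, the other membrane anchor, was at the low end of the members with 0, 34.6 and 16.4 CPM in unstripped, 2.57, 9.05 and 11.8 CPM in stripped, and 0, 1.61 and 0.496 CPM in NGO-treated skin. NGO-treated libraries lay below stripped ones, with a fitted value of -3.40 ± 1.80 (adjusted p = 0.3). Sdha, the flavoprotein subunit, had values of 89.7 to 121 CPM in unstripped, 146 to 187 in stripped and 147 to 207 in NGO-treated libraries, and was called in no comparison.

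Complex III, which oxidises ubiquinol and reduces cytochrome c, summed to 1155 ± 167 CPM in unstripped, 2318 ± 881 in stripped and 1637 ± 222 in NGO-treated skin. All 8 members had fitted values above 0 after stripping, and Uqcrfs1 and Uqcrq passed the test. Uqcrfs1, the Rieske iron-sulphur protein, was at 69.8, 127 and 134 CPM in unstripped, 229, 321 and 409 CPM in stripped, and 96.1, 194 and 144 CPM in NGO-treated skin. Stripped skin was above both other groups in every library, and those 2 groups overlapped. The rise was 1.53 ± 0.38 (edgeR adjusted p = 0.016; 0.073 without unstripped replicate 1 and 0.0605 without stripped replicate 3), and the value with NGO against stripped control skin was -1.14 ± 0.38 (adjusted p = 0.098; 0.0488 without stripped replicate 1).

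Uqcrq, a small accessory subunit, was at 174, 169 and 163 CPM in unstripped, 247, 494 and 528 CPM in stripped, and 273, 235 and 246 CPM in NGO-treated skin. Unstripped skin was below both other groups, and stripped replicate 1 lay among the NGO-treated libraries. The rise with stripping was 1.33 ± 0.32 (edgeR adjusted p = 0.0136; 0.0642 and 0.071 without unstripped replicates 2 and 3). Uqcrh, the hinge protein, was the most abundant subunit in each group, with means of 274 ± 77.0, 477 ± 252 and 344 ± 48.7 CPM, and was not called with stripping (edgeR adjusted p = 0.191), but was without stripped replicate 1 (1.20, adjusted p = 0.0212). The other 5 members had log2 fold changes of 0.37 to 1.12 with stripping.

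The general subunits of complex IV, cytochrome c oxidase, differed least of the 5 complexes in the ratio of stripped to unstripped sums. They summed to 2344 ± 156 CPM in unstripped, 2828 ± 963 in stripped and 2264 ± 330 in NGO-treated skin, and stripped replicate 1 (1717 CPM) was below every other library. None rose and only Cox6a1 fell, as given above. The 3 muscle isoforms summed to 12.2 ± 13.9 CPM in unstripped, 2504 ± 1420 in stripped and 654 ± 260 in NGO-treated skin. By the group means their sum in stripped skin was thus near that of the 11 general subunits together. In stripped replicate 1 it was 892 against 1717 CPM. In replicates 2 and 3 it was 3048 against 3352 and 3572 against 3416 CPM. By the mean over the 9 libraries Cox6a2 was the most abundant member of the complex, a rank that comes from the stripped and NGO-treated libraries: in unstripped skin it averaged 7.17 CPM against 411 for Cox6a1.

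Ndufa4, first described as a complex I subunit and now placed in complex IV, was at 13.3, 53.7 and 51.0 CPM in unstripped, 38.6, 191 and 155 CPM in stripped, and 14.1, 20.02 and 40.5 CPM in NGO-treated skin. Stripped replicate 1 lay below NGO-treated replicate 3. Its value with NGO against stripped control skin was -2.36 ± 0.68 (edgeR adjusted p = 0.0621; 0.0171 without stripped replicate 1 and 0.00725 in DESeq2). With stripping it was 1.70 ± 0.66 (adjusted p = 0.11; 0.026 without stripped replicate 1). Cox5a, a subunit of the matrix side, and Cox4i1, the largest nuclear subunit, had log2 fold changes of 1.43 and 0.66 with stripping and were not called (edgeR adjusted p = 0.066 and 0.219), though Cox5a was without stripped replicate 1, with RLE or upper-quartile scaling and in DESeq2, and both were in limma-voom.

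Complex V summed to 3272 ± 343 CPM in unstripped, 5753 ± 2101 in stripped and 4214 ± 629 in NGO-treated skin. Fitted values were above 0 for all 15 subunits after stripping and below 0 for all 15 with NGO against stripped control skin. Over all 13740 tested genes 6112 were above 0 after stripping and 6575 below 0 with NGO. The same stripped libraries enter both comparisons with opposite sign, so the 2 directions are not independent. Only Atp5b and Atp5o passed the test, both after stripping. Atp5b, the catalytic beta subunit, was at 285, 263 and 259 CPM in unstripped, 342, 774 and 725 CPM in stripped, and 314, 343 and 425 CPM in NGO-treated skin. Unstripped skin was below every other library, and stripped replicate 1 lay at the level of NGO-treated replicate 2. The rise was 1.19 ± 0.33 (edgeR adjusted p = 0.0272), a call lost in 5 of 9 fits without 1 library (unstripped replicate 1, 2 or 3, or stripped replicate 2 or 3; adjusted p up to 0.114).

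Atp5o, the subunit that joins the catalytic head to the stalk, was at 650.4, 247 and 284 CPM in unstripped, 608, 979 and 1394 CPM in stripped, and 722, 578 and 865 CPM in NGO-treated skin. Unstripped replicate 1 was inside the range of both stripped groups. The rise was 1.34 ± 0.41 (edgeR adjusted p = 0.0448), lost in 7 of 9 such fits (all but those without unstripped or stripped replicate 1; adjusted p up to 0.191) and with only the 2 compared groups fitted (0.101). Atp5g3, 1 of 3 genes for the membrane ring subunit c, was the most abundant general subunit of unstripped skin, with 946, 935 and 1039 CPM against 871, 1410.3 and 1526.5 CPM in stripped and 1323, 1212 and 1107 CPM in NGO-treated skin. It was called in no comparison (adjusted p = 0.423 with stripping), and of its sister genes Atp5g1 had a fitted value of 1.71 ± 0.55 (adjusted p = 0.0563) and Atp5g2 0.29 ± 0.48. Atp5g1 was called without stripped replicate 1, with RLE or upper-quartile scaling and in DESeq2. The same mature protein is made from all 3 genes, and the difference between their fold changes was not tested.

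Atp5a1, the alpha subunit of the head, and Atp5j, a stalk subunit, had the smallest p among complex V members in NGO-treated against stripped skin. Atp5a1 was at 288, 427 and 399 CPM in unstripped, 449, 789.7 and 649 CPM in stripped, and 329.8, 409 and 327 CPM in NGO-treated skin. Every stripped library was above every other one. Atp5a1 had a value of 0.76 ± 0.30 with stripping (edgeR adjusted p = 0.112), and 1.01 without stripped replicate 1 (adjusted p = 0.0269). Its value with NGO was -0.82 ± 0.30 (edgeR adjusted p = 0.131; 0.0399 without stripped replicate 1), and that of Atp5j was -1.19 ± 0.46 (adjusted p = 0.153).

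**Figure D5:**
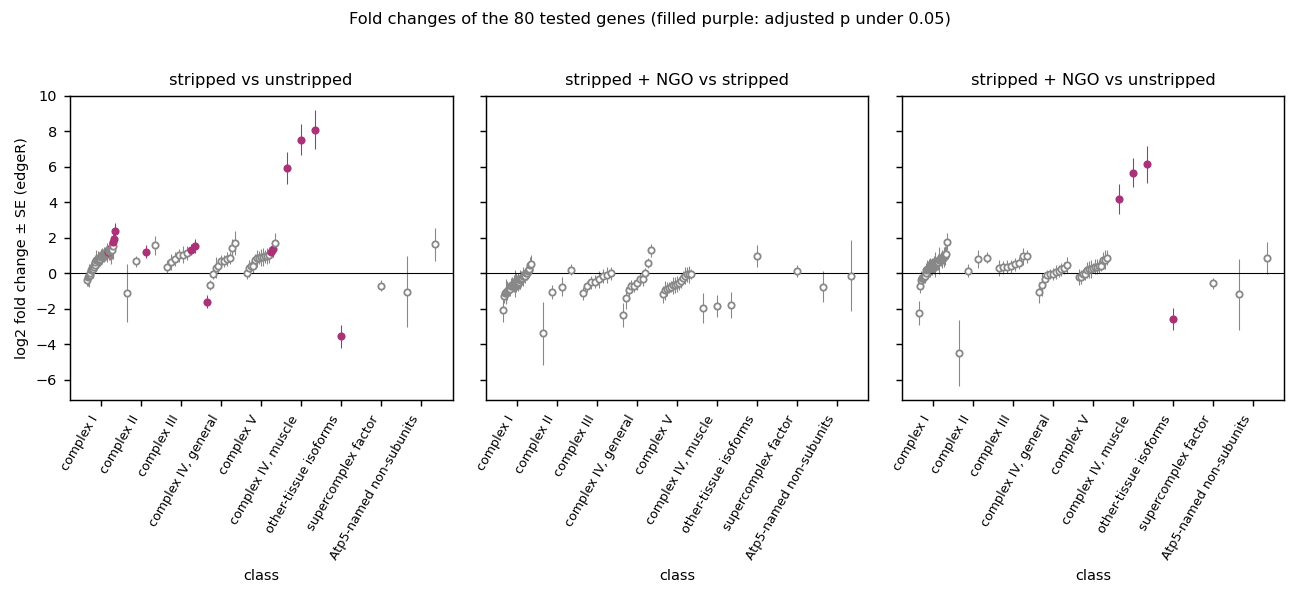
Fitted log2 fold changes ± SE (vertical axis) of the 80 tested members by class (horizontal axis), ordered by value within a class, in the 3 comparisons; filled points passed an adjusted p under 0.05. The 3 muscle isoforms lie at 5.95 to 8.10 after stripping and at 4.16 to 6.14 with NGO against unstripped skin, and no point is filled in the middle panel.

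Among the isoforms of other tissues only Ndufa4l2 had counts enough for a test. Ndufa4l2, a paralogue of Ndufa4 known as a hypoxia-inducible gene and expressed in vascular mural cells, went the other way from most members. It was at 186, 78.9 and 100.0 CPM in unstripped, 9.78, 12.6 and 8.31 CPM in stripped, and 13.8, 7.82 and 37.9 CPM in NGO-treated skin. Both stripped groups were below unstripped skin in every library and overlapped with each other. The fall with stripping was -3.56 ± 0.65 (edgeR adjusted p = 0.00231) and held in all 9 fits that left out 1 library. NGO-treated skin was at -2.61 ± 0.62 against unstripped skin (adjusted p = 0.0403), lost in 7 of 9 such fits (all but those without stripped replicate 1 or NGO-treated replicate 3; adjusted p up to 0.244). The gene lies on chromosome 10, 127514967 to 127517154, plus strand, and its exons overlap those of Shmt2 on the other strand. Shmt2 had 218 to 454 counts in unstripped, 62 to 168 in stripped and 313 to 639 in NGO-treated libraries. The labels do not say whether counting used strand. Hypoxia-linked genes (8 tested, among them Vegfa, Bnip3 and Pdk1) had 0 called in each comparison. Of them 4, 2 and 0 had an unadjusted p under 0.05, beside 27.9%, 21.2% and 11.7% of all tested genes.

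The other 4 isoforms stayed under the low-count filter. Cox4i2, the lung and smooth muscle form of subunit 4, had 2 counts in 1 unstripped library and 0 in the rest. Cox6b2, the testis form, had 15, 2 and 2 counts in unstripped libraries and 0 in all 6 others. Cox7b2 had 3 counts in 1 unstripped library, 21 and 48 in stripped replicates 2 and 3, and 0 elsewhere. Cox8c had 11 and 4 counts in unstripped replicates 2 and 3, 7 in stripped replicate 3, 10 in NGO-treated replicate 2, and 0 elsewhere. Cox7a2l, which helps to join complexes III and IV, was at 167 to 219 CPM in unstripped, 89.5 to 156 in stripped and 117 to 131 in NGO-treated skin and was not called (-0.71 ± 0.33 with stripping, adjusted p = 0.175). Atp5s and Atp5sl were called in no comparison.

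Genes that build or feed the chain were counted in lists of their own. Of 41 tested assembly factors 4 rose with stripping and 1 fell, and 3 were lower with NGO than in stripped control skin, beside 5.97%, 7.64% and 1.18% of all tested genes. Ecsit, a complex I assembly factor also known in innate immune signalling, rose by 2.32 ± 0.36 (edgeR adjusted p = 0.000696), and with NGO it fell by 1.87 ± 0.35 (adjusted p = 0.011). Its values were 56.8, 36.6 and 37.2 CPM in unstripped, 273, 194 and 187 CPM in stripped, and 51.4, 64.0 and 63.1 CPM in NGO-treated skin. Stripped skin was apart from both other groups. Sco1, a copper chaperone of complex IV, rose by 2.13 ± 0.33 (adjusted p = 0.000753) and fell by 1.41 ± 0.33 with NGO (adjusted p = 0.0273). Cox10, which makes haem for complex IV, rose by 1.37 ± 0.34 (adjusted p = 0.0148), and Tmem70, an ATP synthase assembly factor, fell by 1.78 ± 0.47 with NGO (adjusted p = 0.0457). Leaving out 1 library lost the NGO calls of Ecsit, Sco1 and Tmem70 in 1, 4 and 8 of 9 fits (adjusted p up to 0.0623 without NGO-treated replicate 1, 0.11 and 0.138). That of Cox10 with stripping was lost without unstripped replicates 2 and 3 (up to 0.0954).

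Of 16 electron carriers and other chain genes outside the symbols searched, 1 rose and 1 fell with stripping, beside 5.97% and 7.64% of all tested genes. Cycs, cytochrome c, rose by 1.32 ± 0.37 (edgeR adjusted p = 0.0278; up to 0.14 without 1 library, lost in 5 of 9 such fits). Atpif1, the inhibitor that stops the ATP synthase from running in reverse, fell by 5.35 ± 0.65 (adjusted p = 0.000138), from 249, 218 and 243 CPM in unstripped to 0.515, 8.40 and 7.67 CPM in stripped skin. In NGO-treated skin it was at 125, 67.0 and 69.0 CPM, and the 3 groups did not overlap. Atpif1 was also the 1 gene of this list called with NGO against stripped control skin, where it was higher by 3.91 ± 0.61 (adjusted p = 0.00383; up to 0.0662 in other settings). Its value with stripping was opposite in sign to the fitted values of the 15 synthase subunits.

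Of 13 tested carriers, channels and other membrane-linked genes 4 rose and 1 fell with stripping, and with NGO 1 was lower than in stripped and 2 were higher than in unstripped skin. Over all tested genes the shares called in that order were 5.97%, 7.64%, 1.18% and 2.06%. Ucp3, an uncoupling protein of muscle, was under the low-count filter, with 7 counts in unstripped replicate 3, 64 in stripped replicate 3, 1 and 25 in NGO-treated replicates 1 and 3, and 0 elsewhere. Slc25a4, the ADP/ATP carrier of heart and skeletal muscle, rose by 4.08 ± 0.43 (edgeR adjusted p = 6.01e-05), and with NGO it fell by 1.66 ± 0.39 against stripped control skin (adjusted p = 0.029, lost in 4 of 9 fits without 1 library). Its levels were 88.6, 145 and 134 CPM in unstripped, 1021, 2541 and 2638 CPM in stripped, and 582, 491 and 891 CPM in NGO-treated skin, with no overlap. Ckmt2, the mitochondrial creatine kinase of sarcomeres, rose by 9.12 ± 0.99 (adjusted p = 7.26e-05) and was 7.45 ± 0.95 above unstripped skin with NGO (adjusted p = 0.000805). Ucp2, an uncoupling protein family member of many immune and epithelial cells, fell by 2.88 ± 0.74 (adjusted p = 0.0194; up to 0.0774 without unstripped replicate 1 or 3 or stripped replicate 3).

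Of the citric acid cycle, Mdh2, mitochondrial malate dehydrogenase, rose with stripping by 1.60 ± 0.39 (edgeR adjusted p = 0.0157, lost in 3 of 9 fits without 1 library, up to 0.084). Of 12 fatty acid oxidation genes 1 rose and 1 fell with stripping, beside 5.97% and 7.64% of all tested genes. Cpt1b, the muscle form of the carnitine transferase, rose by 1.35 ± 0.37 (adjusted p = 0.025, lost in 2 of 9 such fits, up to 0.128). Cpt1a, the liver form, fell by 3.19 ± 0.97 (adjusted p = 0.0447, lost in 8 of 9, up to 0.145). The Cpt1a call was also lost with RLE scaling, upper-quartile scaling and only the 2 compared groups fitted (up to 0.0794). The 14 tested regulators of mitochondrial biogenesis, among them Ppargc1a, Nrf1, Esrra and Tfam, had 0 called in all 3 comparisons by edgeR. An unadjusted p under 0.05 was found for 1, 2 and 1 of them, beside 27.9%, 21.2% and 11.7% of all tested genes. These were Polg with stripping (-2.60 ± 1.02), and Polg and Ppara with NGO against stripped control skin (2.96 ± 1.03 and -1.02 ± 0.39). Against unstripped skin it was Ppara with NGO (-1.48 ± 0.39). Ppargc1a had a log2 fold change of 0.997 ± 0.892 with stripping (adjusted p = 0.539) and Tfam 0.02 ± 0.68 (adjusted p = 0.99).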

How the data were processed

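Values are the counts the authors deposited, whole numbers by gene symbol, in 1 file a library. Per the labels' protocols RNA was isolated with Trizol, and 500 ng went into a Lexogen QuantSeq library. Bowtie2, bedtools and mm10 are named in the submitters' processing notes; strand and multiple matches are not given in the sources used here.

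Counts were fitted in R 4.3.3 with edgeR 4.0.16 (quasi-likelihood, robust, TMM, filterByExpr) to all 9 libraries with group as factor, after a check on simulated data. In that check, with a fixed spread, 16 of 50 genes changed 2-fold and 47 of 50 changed 4-fold were recovered. A change near 2-fold may therefore go uncalled. Alternatives used RLE and upper-quartile scaling, other filters, limma-voom (limma 3.58.1), DESeq2 1.42.0, a replicate block, 2 groups alone, and each library left out. Replicates differed beyond counting noise (chi-square per degree of freedom 7.71 to 61.5). Wilson intervals (95%) and floors of 3 counts cover counting error only. Of the members, 83 matched GENCODE M21 (Atp5o did not), and 28 share exon bases with another gene.

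The members, gene lists and tests were chosen with earlier results of these data known. Named in full are, by rule, the isoform pairs, the most abundant member of each complex, the 2 with the smallest p in each stripped comparison, every called member, isoforms of other tissues, and at most 3 called genes per list and comparison. Other members and Ppargc1a, Tfam, Polg and Ppara were named after their values were seen. Part of the citric acid cycle list is not reported here.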

Additional observations from a re-analysis of the deposited data

How the results depend on the processing

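Depth and the spread between replicates limit these results. Of the 12 members that rose with stripping, 12 were called without stripped replicate 1, with DESeq2, with limma-voom and with no low-count filter. The count itself was 20 with no low-count filter, 28 with DESeq2, 41 with limma-voom, and 6 to 41 when 1 library was left out (41 without stripped replicate 1, 6 and 7 without unstripped replicates 3 and 2, 7 without stripped replicate 3). Over all genes 820 rose in the reported fit, 948 with no low-count filter, 1428 with DESeq2 and 1405 with limma-voom. Without stripped replicate 1 that count was 976, without unstripped replicates 3 and 2 it was 525 and 527, and without stripped replicate 3 it was 740. The count that fell was 1 to 2 with 1 library left out (1 without unstripped replicate 1). For NGO-treated against stripped skin, the count higher was 1 with no low-count filter and 1 with DESeq2. Over all genes it was 692 and 1043 in these settings, against 532 in the reported fit. The count lower was 1 with RLE and 1 with upper-quartile scaling, 2 with no low-count filter, 8 with DESeq2, 2 with limma-voom, and 0 to 12 with 1 library left out (3 without unstripped replicate 1, 12 without stripped replicate 1). Over all genes 162 were lower in the reported fit, 215 with RLE and 212 with upper-quartile scaling. That count was 275 with no low-count filter, 678 with DESeq2 and 219 with limma-voom. It was 129 without unstripped replicate 1 and 264 without stripped replicate 1. For NGO-treated against unstripped skin, 13 were higher with limma-voom, 2 lower with DESeq2, and 0 to 2 lower with 1 library left out (2 without unstripped replicate 1, and 0 in 6 such fits). Over all genes 869 were higher with limma-voom and 244 lower with DESeq2, against 283 and 62 in the reported fit. Why the counts differed between settings was not tested.

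With the replicate number as a block, 1 member was lower with NGO than in stripped skin and 0 were lower than in unstripped skin. Over all genes these counts were 143 and 54. After stripping, the block lost the calls of Atp5o (adjusted p = 0.0547) and Ndufb8 (0.0749) and gained Ndufa4 (0.0382). With only the 2 compared groups fitted, 8 members rose, and 772 genes over all. Same-numbered libraries did not deviate together (correlations of -0.0735 to 0.116), so the numbers were not taken to pair them.

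Among the named log2 fold changes, signs turned for these, none of which was called in the reported fit. After stripping, Cox7a2 was 0.0702 with RLE scaling, 0.0439 with upper-quartile scaling, 0.0705 with DESeq2 and -0.2472 to 0.1112 with 1 library left out. With NGO it was -0.1737 to 0.1959 against stripped and -0.2435 to 0.0014 against unstripped skin with 1 left out. Cox8a with NGO against unstripped skin was 0.0767 with limma-voom and -0.2432 to 0.1162 with 1 left out. After stripping, Ndufa1 was 0.0422 with the replicate block and -0.6565 to 0.3343 with 1 left out, and Sdhd was 0.245 with the replicate block. With 1 left out, Atp5g3 was -0.3208 to 0.0993 in NGO-treated against stripped skin. Against unstripped skin, Sdhc was -0.0499 to 0.3143, Atp5a1 -0.223 to 0.0381 and Atp5j -0.5593 to 0.0452.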
